A study of Homo sapiens with 14 samples.

Results

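The positions described here are the 861 on chromosomes 4, 13 and 18, out of 26172 distinct A-to-G positions listed in RNA from HEK293T cells that carried an RNA base editor. They were chosen by chromosome alone, as every listed position on those chromosomes in any of 14 lists, and they gave 1572 of the 53390 list entries. Chromosome 4 held 457 of them, chromosome 13 held 208 and chromosome 18 held 196. The name gene-poor was checked against RefSeq's GRCh38.p14 annotation, used here to count genes. Together the 3 chromosomes carry 1377 of its 20033 protein-coding genes (6.87%), against 1451 (7.24%) on chromosome 19 alone.

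HEK293T cells are human embryonic kidney cells that take up plasmids readily. Polyadenylated RNA was sequenced, and the list of each library gives a site's chromosome, position on hg19 (GRCh37) and A-to-G rate, a fraction read here as the editing level. The 14 libraries formed 7 groups of 2, which were DECOR with the MALAT1 guide, dCas13d-ADAR with the EZH2 or the NT guide, REPAIR.t1 with the EZH2_A22 or the NT guide, and REPAIRv2 with the EZH2_A22 or the NT guide. The labels spell out neither NT nor A22. They leave unsaid whether a group's libraries had cultures of their own, and the p-values then cover the spread between libraries alone, which may be technical. DECOR was sampled with a guide of its own and was read for 62 and 160 cycles, against 25 and 97 cycles for all the others. Its editor, its guide and its read length cannot be told apart. All libraries carried an editor, and the lists hold no read counts, so the background without an editor and the depth behind each level are unknown.

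ADAR enzymes deaminate adenosine to inosine in double-stranded RNA, and a sequencer reads inosine as guanosine. RNA base editors such as REPAIRv2 join an ADAR deaminase domain to a catalytically inactive Cas13 protein, which a guide RNA brings to a chosen transcript. The deaminase can also act on transcripts that the guide does not name, and natural ADAR editing often lies in clusters within paired repeats. A site can be listed only where the cell makes RNA that was read deeply enough. In RefSeq, EZH2 lies on chromosome 7 and MALAT1 on chromosome 11, so every site described here lies away from both genes that the guides are named for. Genes, exons, strand and neighbouring bases of the positions were not analysed here, since no annotation or sequence of hg19 was used.

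The 3 chromosomes gave well over 100 sites in each library of DECOR, dCas13d-ADAR and REPAIR.t1, and at most 4 in any library of REPAIRv2. DECOR listed 178 and 203 sites there. dCas13d-ADAR listed 133 and 146 with the EZH2 guide and 148 and 142 with the NT guide. REPAIR.t1 listed 169 and 161 with the EZH2_A22 guide and 144 and 137 with the NT guide. REPAIRv2 listed 4 and 4 with the EZH2_A22 guide and 2 and 1 with the NT guide. REPAIRv2 therefore stood apart from all others, with no overlap between its libraries and theirs, while the libraries of dCas13d-ADAR and REPAIR.t1 overlapped.

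The geometric mean number of sites was 59.8 times higher with dCas13d-ADAR than with REPAIRv2 (142 against 2.38), and 64.0 times higher with REPAIR.t1 than with REPAIRv2 (152 against 2.38). Both differences passed the two-sided exact permutation test of 4 libraries against 4 (p = 0.0286, the smallest it allows; adjusted p = 0.0429 over the 3 pairs without DECOR). dCas13d-ADAR had 0.934 times the number of REPAIR.t1, a difference within the spread between libraries (exact p = 0.257). DECOR had 1.34 times the number of dCas13d-ADAR, 1.25 times that of REPAIR.t1 and 79.9 times that of REPAIRv2, without overlap. With 2 libraries against 4 the smallest two-sided exact p is 0.133, so no comparison of DECOR could pass. The higher DECOR number did not hold for sites in both libraries of a group. There DECOR had 59, against 70 and 79 in the dCas13d-ADAR groups and 60 and 55 in the REPAIR.t1 groups. Numbers of sites mix editing with detection, because a deeper library can list more sites.

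As a share of each library's own list, the 3 chromosomes held 3.23% and 3.47% of DECOR sites. They held 2.28%, 2.52%, 2.58% and 2.45% of dCas13d-ADAR sites, and 3.55%, 3.37%, 3.07% and 3.15% of REPAIR.t1 sites, with the EZH2 libraries given first. Every dCas13d-ADAR library lay below every REPAIR.t1 library. The mean share was 2.46% ± 0.131 with dCas13d-ADAR and 3.28% ± 0.215 with REPAIR.t1 (SD, n = 4 each). That gap of -0.82 percentage points gave an exact permutation p of 0.0286 and did not pass after adjustment (adjusted p = 0.0857). The REPAIRv2 share, 3.77% ± 1.10 (SD, n = 4), rests on 1 to 4 sites per library, and the same holds for each REPAIRv2 level and spacing given below.

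**Figure D1:**
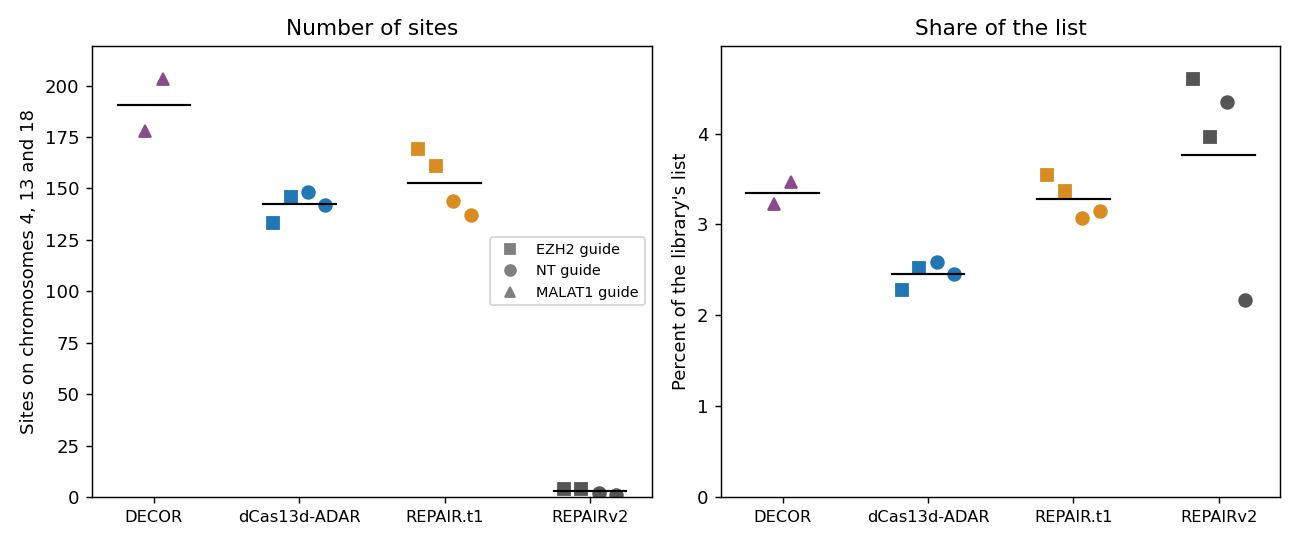
Number of sites on chromosomes 4, 13 and 18 (left) and their percent of the library's list (right) for each of the 14 libraries, with a bar at the editor's mean and the symbol giving the guide. REPAIRv2 has 1 to 4 sites, and the dCas13d-ADAR shares of 2.28% to 2.58% lie below the REPAIR.t1 shares of 3.07% to 3.55%.

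All 3 chromosomes were among the 4 with the smallest shares of a list, out of 23 chromosomes, in DECOR, dCas13d-ADAR and REPAIR.t1 alike. Chromosome 18 was the lowest with DECOR (0.790% of the list) and dCas13d-ADAR (0.497%), and chromosome 13 was the lowest with REPAIR.t1 (0.736%). Chromosome 4 held 1.58% of a DECOR list, 1.45% of a dCas13d-ADAR list and 1.76% of a REPAIR.t1 list, as means over libraries. Chromosome 13 varied most between editors. It carried 55 and 56 DECOR sites, against 23 to 33 dCas13d-ADAR sites and 29 to 42 REPAIR.t1 sites.

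Editing levels on the 3 chromosomes were lower in the DECOR lists than in those of dCas13d-ADAR and REPAIR.t1, whose levels overlapped. The median level was 0.218 and 0.227 in the DECOR libraries. It was 0.3, 0.267, 0.273 and 0.280 in the dCas13d-ADAR libraries, and 0.278, 0.294, 0.268 and 0.273 in the REPAIR.t1 libraries, with the EZH2 libraries first. DECOR thus lay below all 8 of the others. Its mean of 0.223 ± 0.00651 (SD, n = 2) was 0.0572 below the 0.280 ± 0.0145 of dCas13d-ADAR and 0.0555 below the 0.278 ± 0.0114 of REPAIR.t1 (SD, n = 4 each), both at the smallest exact p for these sizes (0.133). Between dCas13d-ADAR and REPAIR.t1 the exact permutation p was 0.829. In the 4 REPAIRv2 libraries the median was 0.244 and 0.223 with the EZH2_A22 guide and 0.286 and 0.133 with the NT guide.

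Sites edited in at least 0.5 of the reads were uncommon. They made up 1.12% and 0.985% of DECOR sites, 4.79% to 9.02% of dCas13d-ADAR sites, 4.17% to 9.32% of REPAIR.t1 sites and none of the REPAIRv2 sites. The highest level reached was 0.568 in a DECOR library, 0.789 in a dCas13d-ADAR library and 0.714 in a REPAIR.t1 library. The lowest listed levels were between 0.0851 and 0.130 in these 10 libraries.

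Within a library, sites on chromosomes 4, 13 and 18 had a higher median level and fewer close neighbours than sites on the other chromosomes. Over the 10 libraries of DECOR, dCas13d-ADAR and REPAIR.t1 the median level was 0.268 ± 0.0261 on the 3 chromosomes and 0.251 ± 0.0230 on the rest (SD, n = 10). The difference was 0.0172 ± 0.0101 and lay above 0 in 10 of 10 libraries (two-sided exact sign-flip permutation p = 0.00195, the smallest that 1024 arrangements give; adjusted p = 0.00293 over 3 measures). The smallest difference was 0.00351, in a dCas13d-ADAR library with the EZH2 guide, and the largest was 0.0333, in the other library of that group. It no longer passed with sites under a level of 0.2 left out (0.00521; adjusted exact permutation p = 0.309), for sites in both libraries of a group (0.0137; adjusted p = 0.0586) or on chromosome 4 alone (0.0113; adjusted p = 0.0645). Libraries of an editor share most of their conditions and many of their positions, and the 10 are not 10 independent cultures as far as the labels say. The sign-flip test therefore shows only whether libraries move together.

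By chromosome, the raised medians were not spread evenly. With dCas13d-ADAR the mean of the library medians was 0.309 ± 0.0140 on chromosome 18, 0.290 ± 0.0122 on chromosome 13 and 0.270 ± 0.0165 on chromosome 4 (SD, n = 4), which ranked 1st, 3rd and 10th of 23 chromosomes from the highest. With REPAIR.t1 it was 0.295 ± 0.0252 on chromosome 13, 0.277 ± 0.0337 on chromosome 18 and 0.270 ± 0.0148 on chromosome 4 (SD, n = 4), which ranked 1st, 3rd and 5th. With DECOR it was 0.240 ± 0.0136 on chromosome 13, 0.229 ± 0.00924 on chromosome 4 and 0.205 ± 0.0135 on chromosome 18 (SD, n = 2), which ranked 1st, 2nd and 17th. Chromosome 13 was among the 3 highest for each of these editors, while chromosome 18 was high with dCas13d-ADAR and REPAIR.t1 and low with DECOR. Chromosomes 13 and 18 rest on 23 to 56 sites per library, so these ranks were not tested.

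**Figure D2:**
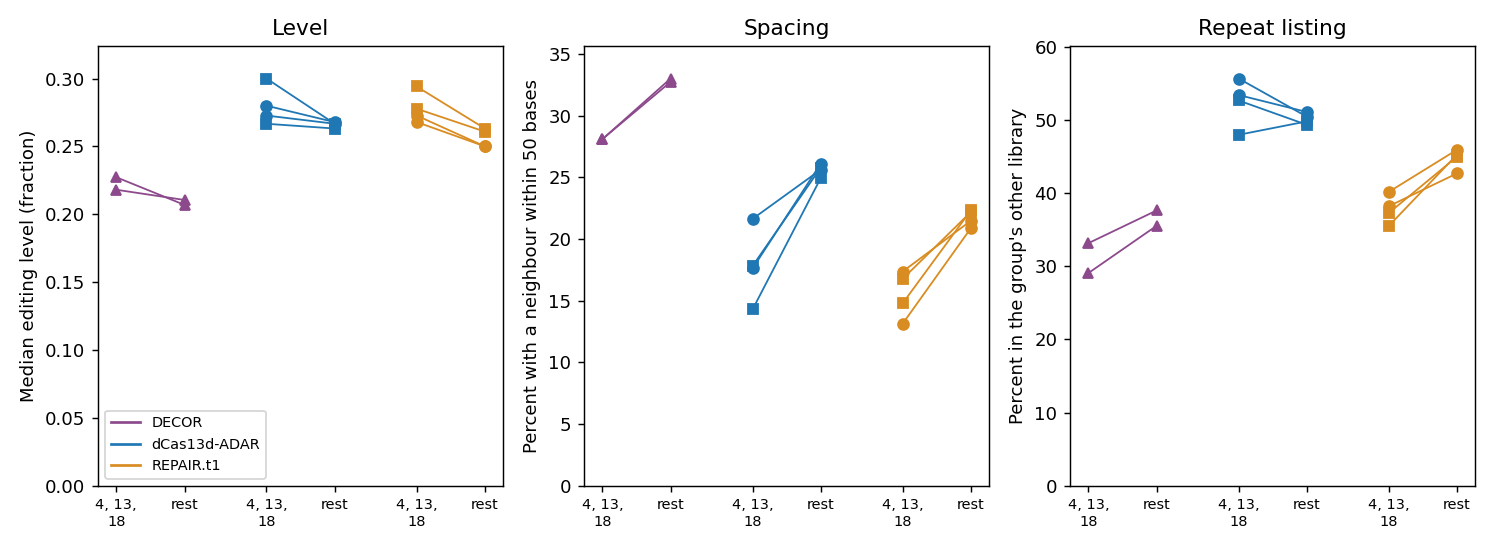
Median editing level, percent of sites with a neighbour within 50 bases and percent of sites listed in the group's other library, each for chromosomes 4, 13 and 18 (left point) and all other chromosomes (right point). Lines join the values of a library, circles are NT, squares EZH2 and triangles MALAT1 guides. In all 10 libraries the left point is the higher for the level and the lower for the neighbour share, while repeat listing goes both ways.

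Close neighbours were scarcer on the pooled 3 chromosomes, but not on chromosome 13 with DECOR. A site counted as having a neighbour if another site of its list lay within 50 bases. On chromosomes 4, 13 and 18 this held for 28.1% and 28.1% of DECOR sites. It held for 14.3%, 17.8%, 21.6% and 17.6% of dCas13d-ADAR sites and 14.8%, 16.8%, 17.4% and 13.1% of REPAIR.t1 sites (EZH2 libraries first), and for no REPAIRv2 site. On the other chromosomes the means were 32.9%, 25.6%, 21.7% and 1.11% for DECOR, dCas13d-ADAR, REPAIR.t1 and REPAIRv2. Libraries of an editor list many of the same positions, so a test over libraries shows only whether they move together. The difference from the rest was -6.55 ± 2.24 percentage points (SD, n = 10) and lay below 0 in 10 of 10 libraries of the 3 long-list editors (exact sign-flip permutation p = 0.00195, adjusted p = 0.00293). With neighbours within 10 bases, a distance tried for this difference after seeing the data, it was -2.57 ± 3.34 points, above 0 in dCas13d-ADAR NT replicate 1 (1.96) and DECOR replicate 2 (3.45), and did not pass (adjusted exact permutation p = 0.0615). With a minimum level of 0.2 it was -3.82 points and did not pass (adjusted exact permutation p = 0.0879), and on chromosome 18 alone it was -12.5 points (adjusted p = 0.00586). The ranks below run from the lowest neighbour share of 23 chromosomes, for dCas13d-ADAR, REPAIR.t1 and DECOR in turn. Chromosome 18 ranked 2nd, 1st and 1st, chromosome 13 ranked 1st, 3rd and 19th, and chromosome 4 ranked 5th, 4th and 5th. Chromosome 21, outside the part and 3rd from the lowest in list share with each editor, ranked 3rd, 2nd and 4th. Few close neighbours were thus not particular to the 3 chromosomes. They also hold among the fewest sites, as given above, and the part of that in the result was not tested.

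DECOR had the largest share of close neighbours on the 3 chromosomes, without overlap with any other library. It lay 10.3 percentage points above dCas13d-ADAR and 12.6 above REPAIR.t1, at the smallest exact p these sizes allow (0.133). dCas13d-ADAR, at 17.8% ± 2.999, and REPAIR.t1, at 15.5% ± 1.93 (SD, n = 4 each), overlapped (exact permutation p = 0.229). Very short distances were few with every editor. Sites whose nearest neighbour was exactly 2 bases away made up 2.25% and 7.88% of DECOR sites, against 0% to 1.35% with dCas13d-ADAR and 0% to 3.55% with REPAIR.t1. Neighbours 1 base away were absent from both DECOR libraries, against 0% to 1.504% of dCas13d-ADAR sites and 1.18% to 2.78% of REPAIR.t1 sites. These rest on at most 8 pairs of sites in a library and were not tested. The REPAIR.t1 range overlaps DECOR's at 2 bases, and a dCas13d-ADAR library also had no site 1 base from another.

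At the other end, a site was often alone. More than 10000 bases separated it from the next site of the list in 37.1% ± 2.33 of DECOR sites (SD, n = 2), 37.5% ± 3.62 of dCas13d-ADAR sites and 44.9% ± 3.87 of REPAIR.t1 sites (SD, n = 4 each). On the other chromosomes those shares were 18.9% ± 0.776, 20.3% ± 0.548 and 28.2% ± 1.30. The median distance to the nearest site was 1556 and 2806 bases in the DECOR libraries, 2329.5 to 4671 bases with dCas13d-ADAR and 2279 to 9612 bases with REPAIR.t1. On the other chromosomes it was 286 to 296, 462 to 545 and 941 to 1272 bases for the same editors. Sites on the 3 chromosomes were thus farther apart in every library of these editors.

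**Figure D3:**
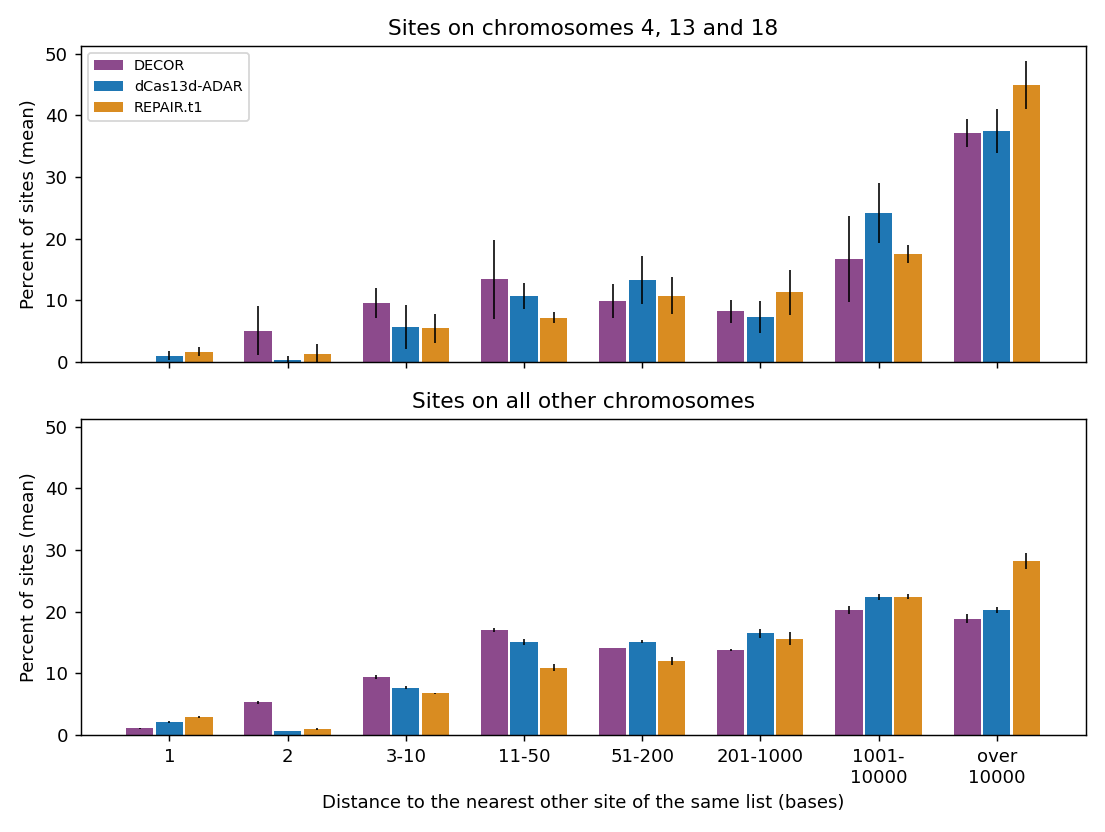
Percent of sites by the distance in bases to the nearest other site of the same list, on chromosomes 4, 13 and 18 (top) and on all other chromosomes (bottom). Bars are means over libraries (DECOR n = 2, dCas13d-ADAR and REPAIR.t1 n = 4) and lines are SD. The class over 10000 bases is the tallest on chromosomes 4, 13 and 18, with 37.1% to 44.9% of sites, against 18.9% to 28.2% on the rest.

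Density was measured in bins of 1 Mb, of which 361 lie between the first and last listed site of the 3 chromosomes. DECOR averaged 0.528 ± 0.0490 sites per Mb (SD, n = 2), dCas13d-ADAR 0.394 ± 0.0184, REPAIR.t1 0.423 ± 0.0410 and REPAIRv2 0.00762 ± 0.00416 (SD, n = 4 each). Most bins were empty. A library had sites in 64 and 72 bins with DECOR, in 52 to 57 with dCas13d-ADAR, in 55 to 70 with REPAIR.t1 and in 1 to 4 with REPAIRv2. On chromosome 13 alone the density was 0.578 ± 0.00737 per Mb with DECOR, 0.310 ± 0.0476 with dCas13d-ADAR and 0.357 ± 0.0627 with REPAIR.t1.

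Sites were piled into few bins. The 3 fullest bins of each editor held 27.6% ± 5.53 of DECOR sites (SD, n = 2), 28.9% ± 2.31 of dCas13d-ADAR sites and 20.98% ± 2.07 of REPAIR.t1 sites (SD, n = 4 each). The bins were picked for being full, so these shares are a description. They came to 31.5% and 23.6% in the 2 DECOR libraries.

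**Figure D4:**
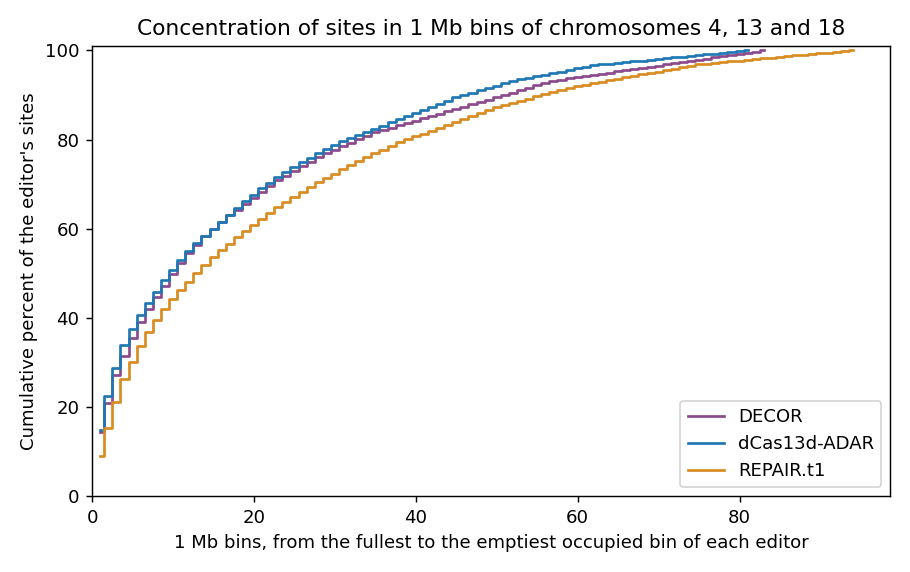
Cumulative percent of an editor's sites (all its libraries together) over its occupied 1 Mb bins, ordered from the fullest to the emptiest. DECOR occupies 83 bins, dCas13d-ADAR 81 and REPAIR.t1 94, and the REPAIR.t1 line runs below the others, with fewer of its sites in its fullest bins.

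The fullest bin was the same for dCas13d-ADAR and REPAIR.t1 and another for DECOR. For dCas13d-ADAR it was chr4:1000001-2000000, with 22, 23, 17 and 23 sites per library (EZH2 libraries first). REPAIR.t1 had its fullest bin at the same place, with 17, 17, 12 and 9 sites, and DECOR had 14 and 10 sites there. The dCas13d-ADAR and REPAIR.t1 libraries met at 17 sites. dCas13d-ADAR listed 45 distinct positions in this bin, of which 22 were also in a list of another editor, and REPAIR.t1 listed 38, of which 21 were. Of the 22 DECOR positions there, 1 was shared. Over chromosomes 4, 13 and 18, 48.7% of dCas13d-ADAR, 59.9% of REPAIR.t1 and 96.6% of DECOR positions were in no list of another editor. The sharing counts of this bin, which was picked for being full, were not tested. The sites were not a single stretch: the largest stretch without a gap over 50 kb held 13 of the dCas13d-ADAR positions, over 36.1 kb from 1807184 to 1843303, and 12 of the REPAIR.t1 positions, over 38.2 kb from 1694764 to 1732975.

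The DECOR sites of chromosome 13 were concentrated in chr13:31000001-32000000. This bin held 27 and 28 DECOR sites, against 1, 2, 1 and 2 dCas13d-ADAR sites and 3, 2, 4 and 3 REPAIR.t1 sites. The 43 distinct DECOR positions all lay within 25.1 kb, from 31710870 to 31735927, and 12 of them were in both DECOR libraries. Their levels ran between 0.169 and 0.568, with a median of 0.25. Of the 43, 1 was in a list of another editor, near the share over all DECOR positions here, of which 96.6% were in none. REPAIR.t1 had 5 positions in nearly the same stretch, from 31710858 to 31735937, and dCas13d-ADAR had 2, at 31722148 and 31724195. The same 25 kb of the genome was thus listed by 3 editors, and by DECOR at many more positions.

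Chromosome 18 had a similar DECOR stretch at lower levels. The bin chr18:43000001-44000000 held 15 and 10 DECOR sites, against 2 to 4 dCas13d-ADAR sites and 2 to 3 REPAIR.t1 sites. All 19 distinct DECOR positions lay within 43.8 kb, from 43664249 to 43708062, 6 of them were in both libraries, and the median level was 0.15. Both dCas13d-ADAR and REPAIR.t1 listed 5 positions between 43666089 and 43675091. None of the 19 was shared with another editor. The same held for 311 of all 322 DECOR positions on the 3 chromosomes (96.6%), so nothing is read from that count.

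The bin chr13:98000001-99000000 was among the fullest for both dCas13d-ADAR (8 to 10 sites per library) and REPAIR.t1 (9 to 11). DECOR listed 6 and 5 sites there. The 16 dCas13d-ADAR positions lay within 21.9 kb, and 14 of them were also in another editor's list. The 21 REPAIR.t1 positions lay within 33.4 kb, with 14 in another list. Over the 3 chromosomes, 48.7% of dCas13d-ADAR and 59.9% of REPAIR.t1 positions were in no list of another editor. The bin was picked for being full, and these counts were not tested. The 10 DECOR positions lay within 21.7 kb, from 98652805 to 98674468, in the same stretch. None of the 10 was a position that another editor listed, as for 96.6% of all DECOR positions on the 3 chromosomes.

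Of the remaining fullest bins, chr4:2000001-3000000 held 10 to 11 dCas13d-ADAR sites per library, against 4 to 5 REPAIR.t1 sites and 5 and 4 DECOR sites. The bin chr4:57000001-58000000 held 6 to 11 REPAIR.t1 sites, 5 to 8 dCas13d-ADAR sites and 3 and 7 DECOR sites. REPAIRv2 had no bin with more than 1 site in a library.

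The first 5 Mb of chromosome 4, a region chosen after its values were seen, carried 37.5 ± 1.91 dCas13d-ADAR sites per library and 21.8 ± 4.43 REPAIR.t1 sites (SD, n = 4 each), and 24 and 26 DECOR sites. That was 44.8% of the chromosome's dCas13d-ADAR sites, 26.5% of its REPAIR.t1 sites and 27.9% of its DECOR sites. Without this region, the 3 chromosomes held 1.81% ± 0.135 of a dCas13d-ADAR list and 2.82% ± 0.151 of a REPAIR.t1 list (SD, n = 4 each), and 2.91% ± 0.163 of a DECOR list (SD, n = 2). The ratio of site numbers, dCas13d-ADAR over REPAIR.t1, was then 0.800.

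Editors often had sites in the same 1 Mb bins, and editors that share a position share its bin by construction. DECOR and dCas13d-ADAR had 60 occupied bins in common, 72.3% of the 83 DECOR bins and 74.1% of the 81 dCas13d-ADAR bins. DECOR and REPAIR.t1 had 71 in common, and dCas13d-ADAR and REPAIR.t1 had 69. Among the 322 distinct DECOR positions, 9 (2.80%) were in a dCas13d-ADAR or REPAIR.t1 list. Within 50 bases of such a position lay 58 of them (18.01%), within 1000 bases 163 (50.6%) and within 10000 bases 251 (78.0%). On the other chromosomes the same shares were 3.72%, 32.8%, 70.9% and 90.7%.

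Among dCas13d-ADAR positions on the 3 chromosomes, 156 of 310 (50.3%) were also listed by REPAIR.t1. Seen from REPAIR.t1, the same 156 were 39.8% of its 392 positions. On the other chromosomes the shared positions were 46.9% of the dCas13d-ADAR positions and 55.1% of the REPAIR.t1 positions. REPAIR.t1 thus had a larger part of its positions to itself on the 3 chromosomes: 235 of 392 (59.9%) were in no list of another editor, against 44.4% on the rest. For dCas13d-ADAR it was 151 of 310 (48.7%), against 51.9% on the rest, and for DECOR it was 311 of 322 (96.6%), against 96.2%. All 4 editors listed 0 of the 861 positions here and 12 of the 25311 on other chromosomes (0.0474%), a share too low to expect any among 861. Depth bears on which sites are listed, and these shares were not tested.

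Between single libraries, overlap was counted as the percent of the shorter list whose position was also in the longer. The 2 DECOR libraries shared 59 of 178 sites (33.1%; exact Clopper-Pearson 95% interval 26.3% to 40.6%, which covers counting error only), against 37.6% on the rest. The dCas13d-ADAR libraries of a group shared 52.6% and 55.6% on the 3 chromosomes, and the REPAIR.t1 libraries of a group shared 37.3% and 40.1%. Between a dCas13d-ADAR and a REPAIR.t1 library the overlap was 28.6% to 39.1% over 16 pairs, against 43.2% to 45.1% on the rest. Those ranges do not measure the same share. The shorter list was that of REPAIR.t1 in every pair on the rest, and that of either editor on the 3 chromosomes. As a percent of the longer list the ranges overlapped, at 26.4% to 33.5% on the 3 chromosomes and 32.8% to 36.7% on the rest. These 16 pairs are made of 8 libraries and are not independent. DECOR shared 0% to 2.70% with dCas13d-ADAR libraries and 0.592% to 1.86% with REPAIR.t1 libraries.

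**Figure D5:**
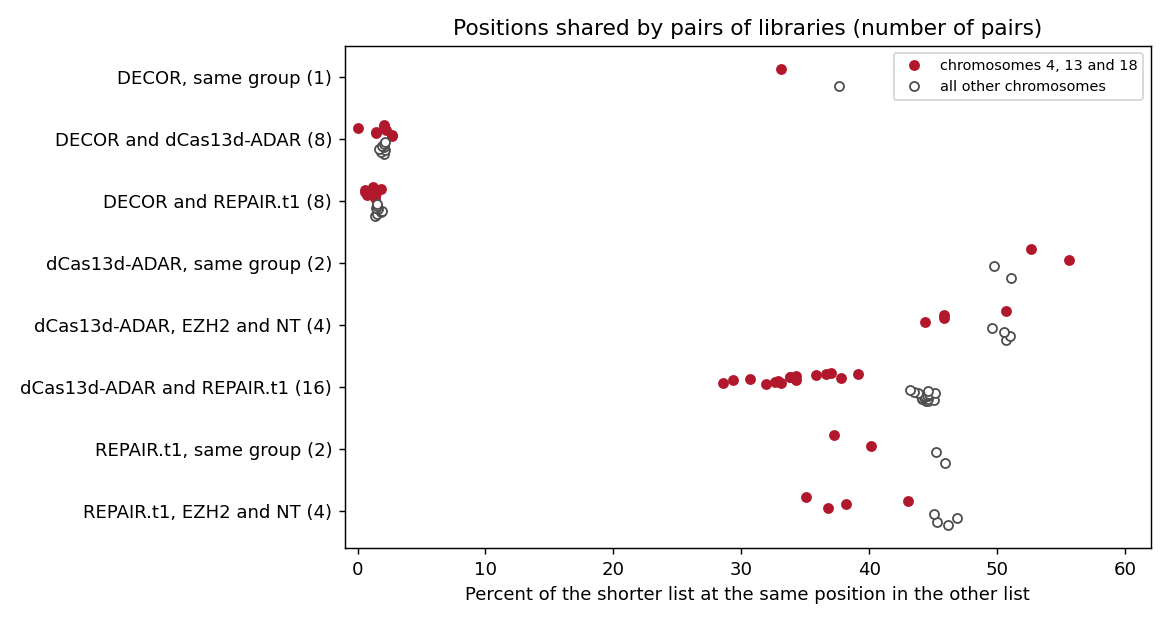
Percent of the shorter list whose position is also in the longer list, for each pair of libraries (number of pairs in brackets), on chromosomes 4, 13 and 18 (filled) and on all other chromosomes (open). Pairs of a dCas13d-ADAR and a REPAIR.t1 library lie at 28.6% to 39.1% on the 3 chromosomes and at 43.2% to 45.1% on the rest. The shorter list of these pairs is always that of REPAIR.t1 on the rest, and that of either editor on the 3 chromosomes. Pairs of DECOR with another editor stay at or under 2.70% on the 3 chromosomes.

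Within a group, the share of sites also listed in the other library differed between the 3 chromosomes and the rest by -2.96 ± 5.04 percentage points (SD, n = 10), below 0 in 7 of 10 libraries (exact sign-flip permutation p = 0.0957). Without dCas13d-ADAR NT replicate 2 it was -3.87 points and passed (exact permutation p = 0.0352), though the other library of that group carries the same shared sites. The means of 2 editors had opposite signs. The difference was 2.26 ± 2.98 points with dCas13d-ADAR and -6.92 ± 2.30 points with REPAIR.t1 (SD, n = 4 each). That contrast of 9.18 points gave an exact permutation p of 0.0286 and did not pass over the 3 measures (adjusted p = 0.0857). Both libraries of a group hold the same shared sites, so their values are not independent. The p-values for repeat listing take libraries as separate, and nothing is read from them.

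Most positions were rarely listed. Of the 861, 550 (63.9%) were in 1 library, against 58.1% on the other chromosomes, and 153 were in 2. The most widely listed were chr4:103717875 and chr4:3526728, each in 10 libraries. All 8 libraries of dCas13d-ADAR and REPAIR.t1 listed 10 positions, 6.41% of the 156 that both editors had, against 10.6% on the rest. The levels did not climb steadily with the number of libraries. For dCas13d-ADAR the median of the mean levels was 0.278, 0.270, 0.286 and 0.296 for positions in 1, 2, 3 and 4 libraries. For REPAIR.t1 it was 0.263, 0.294, 0.286 and 0.319, and for DECOR it was 0.222 and 0.227 for positions in 1 and 2 libraries. On the other chromosomes these medians were 0.25, 0.252, 0.266 and 0.318 for dCas13d-ADAR. They were 0.25, 0.25, 0.264 and 0.290 for REPAIR.t1, and 0.207 and 0.214 for DECOR. Only for dCas13d-ADAR positions in all 4 libraries was the median lower on the 3 chromosomes than on the rest. No trend was tested.

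Among positions in all 4 libraries of an editor, chr4:103717875 had the highest mean level for both dCas13d-ADAR and REPAIR.t1. Positions in fewer libraries went higher, 5 with dCas13d-ADAR (up to 0.656 at chr13:98674733, in 3 libraries) and 3 with REPAIR.t1 (up to 0.714 at chr18:51681421, in 1 library). Its level was 0.480, 0.560, 0.545 and 0.636 in the dCas13d-ADAR libraries and 0.556, 0.600, 0.636 and 0.652 in the REPAIR.t1 libraries (EZH2 libraries first), and 0.364 and 0.133 in the REPAIRv2 libraries with the NT guide. Neither DECOR library listed it. The dCas13d-ADAR and REPAIR.t1 levels overlapped, and both REPAIRv2 levels lay below all of them. REPAIR.t1 also listed the neighbouring base, chr4:103717874, in all 4 libraries (0.229, 0.257, 0.344 and 0.409), with no other editor listing it. These 2 made up the REPAIR.t1 run with the most positions in all 4 libraries. The run held 3 positions over 6 bases, the third of which, chr4:103717879, was in 1 library at 0.176. dCas13d-ADAR had 2 such runs, chr4:77987417-77987432 and chr4:106367616-106367650, with both positions of each in all 4 libraries.

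The position chr4:3526728 was listed at 0.407, 0.370, 0.367 and 0.409 by dCas13d-ADAR and at 0.357, 0.313, 0.379 and 0.233 by REPAIR.t1 (EZH2 libraries first). REPAIRv2 listed it at 0.211 with the EZH2_A22 guide and at 0.208 with the NT guide, again below the other 8 values. At chr13:98652812 the order of the longer-list editors was the other way round, with 0.368, 0.464, 0.357 and 0.5 for dCas13d-ADAR and 0.5, 0.5, 0.579 and 0.600 for REPAIR.t1. These groups met at 0.5. The difference in log2 odds was -0.70 ± 0.36 (SE), the largest in size among the 10 shared positions, and did not pass in limma (adjusted p = 0.192 over all positions tested).

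In the test of levels at single positions, dCas13d-ADAR against REPAIR.t1, 609 positions listed in all 8 libraries could be tested over all chromosomes and 44 (7.22%) passed an adjusted p of 0.05 in limma. The 44 became 10, 18 and 19 without dCas13d-ADAR NT replicate 1, REPAIR.t1 EZH2_A22 replicate 2 and REPAIR.t1 NT replicate 2. On the 3 chromosomes 10 could be tested and 0 passed, and 0 had an unadjusted p under 0.05, against 158 over all chromosomes. With so few positions tested, nothing is read from this count. The level was higher with dCas13d-ADAR at 7 of the 10, and the median log2 odds difference was 0.26, against 0.34 over all 609. That direction did not hold within a guide, where more positions could be tested. With the EZH2 libraries alone the level was higher with dCas13d-ADAR at 11 of 24 and the median was -0.0321, against 0.22 over all positions tested. With the NT libraries alone it was higher at 9 of 21 and the median was -0.0598, against 0.28. The largest rise was 0.58 ± 0.37 (SE) at chr4:57326186, where the level was 0.387 ± 0.0873 with dCas13d-ADAR and 0.297 ± 0.0851 with REPAIR.t1 (SD, n = 4 each; limma adjusted p = 0.321), and the libraries overlapped. The mean level over the 10 positions was 0.340 ± 0.0153 with dCas13d-ADAR and 0.330 ± 0.0256 with REPAIR.t1 (SD, n = 4 each).

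Other positions in all 4 libraries with high mean levels lay on all 3 chromosomes. dCas13d-ADAR listed chr13:30087074 at 0.510 ± 0.123 and chr4:106367616 at 0.490 ± 0.128, and chr4:99996144 at 0.415 ± 0.0308 (SD, n = 4). REPAIR.t1 listed chr18:33718829 at 0.541 ± 0.0810, chr13:98674733 at 0.448 ± 0.0644 and chr13:73349493 at 0.437 ± 0.162 (SD, n = 4). Each of these was also listed by the other of the 2 editors in 2 or 3 libraries.

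The 5 highest mean DECOR levels among positions in both its libraries were chr13:31727045 at 0.568 and 0.375, chr4:54915161 at 0.421 and 0.5, chr13:31724235 at 0.447 and 0.448, chr4:140270706 at 0.421 and 0.429, and chr18:21062318 at 0.417 and 0.357. No other editor listed any of them, as for 56 of the 59 positions in both DECOR libraries (94.9%). Those on chromosome 13 lay in the 25.1 kb stretch. Positions in 1 DECOR library went higher at chr18:21057025 (0.563) and chr4:42051437 (0.545). DECOR had 5 runs with 2 positions in both libraries, the most in any run. Of these, chr13:31722518-31722593, chr13:31724195-31724277 and chr13:31727045-31727073 lay in the same stretch and held 4, 4 and 3 positions in all, and chr4:41265244-41265269 and chr4:152025402-152025410 held 2 each. The first of them spanned 76 bases, at levels of 0.214 to 0.347. Among positions in both DECOR libraries, the one in the most libraries of other editors, 5, was chr4:2254229. Its level was 0.286 and 0.297 with DECOR, 0.242 to 0.370 in 3 dCas13d-ADAR libraries, and 0.219 and 0.345 in 2 REPAIR.t1 libraries, so all 3 editors overlapped there. A position in 1 DECOR library, chr13:31724195 at 0.311, was in 7 other libraries, with means of 0.372 over 3 dCas13d-ADAR libraries and 0.365 over 4 REPAIR.t1 libraries.

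Runs of sites with gaps of at most 50 bases were short with all 3 editors. DECOR had 41 runs with 103 positions, dCas13d-ADAR 34 runs with 73 and REPAIR.t1 43 runs with 90. Pairs made up 27 of the DECOR runs, 30 of the dCas13d-ADAR runs and 39 of the REPAIR.t1 runs. The longest run spanned 121 bases with DECOR, 56 with dCas13d-ADAR and 54 with REPAIR.t1, and the run with the most positions was a DECOR run of 5, chr4:106320255-106320277. DECOR thus had fewer pairs and more runs of 3 or more positions than the other editors, although it had 2 libraries and they had 4. Its run of 5 held no position that both libraries listed, as did other DECOR runs of 3 or more. Several of these longer runs lay in the single 25.1 kb stretch of chromosome 13.

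Some positions were listed in all libraries of an editor and in no list of another. For DECOR, with 2 libraries, they were 56 of 59 (94.9%), against 95.4% on the other chromosomes. For dCas13d-ADAR these were chr4:2910307, chr4:17616389, chr4:57326961, chr4:77987432 and chr13:45914242, with mean levels of 0.181 to 0.335. For REPAIR.t1 they were chr4:103717804, chr4:103717874, chr13:36878605, chr18:20581671 and chr18:34376562, with mean levels of 0.261 to 0.371. They were chosen after their values were seen. They made 5 of the 33 positions in all dCas13d-ADAR libraries (15.2%), against 166 of 1632 (10.2%) on the other chromosomes, and 5 of the 26 in all REPAIR.t1 libraries (19.2%), against 71 of 1027 (6.91%). With 5 positions each, these shares were not tested.

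REPAIRv2 listed 9 positions on the 3 chromosomes, 6 of them on chromosome 4. Positions shared with dCas13d-ADAR and REPAIR.t1 were 5: chr4:3526728, chr4:103717875, chr4:155467301, chr13:80127805 and chr18:33570732. At chr18:33570732 its level was 0.25, against 0.267 to 0.333 in 3 dCas13d-ADAR libraries and 0.3 to 0.563 in 3 REPAIR.t1 libraries. At chr4:155467301 it was 0.238, against 0.258 and 0.318 with dCas13d-ADAR and 0.2, 0.36 and 0.36 with REPAIR.t1. One REPAIR.t1 level there thus lay below that of REPAIRv2. At chr13:80127805 the REPAIRv2 level was 0.235, against 0.235 and 0.263 with dCas13d-ADAR and 0.333 and 0.35 with REPAIR.t1. The lower of those dCas13d-ADAR levels equalled that of REPAIRv2. Another 2 were shared with DECOR: chr4:2940026, at 0.444 with REPAIRv2 and 0.435 in 1 DECOR library, and chr4:57326329, at 0.148 with REPAIRv2 and 0.188 and 0.182 with DECOR. The remaining 2, chr4:57326253 at 0.190 and chr13:98642725 at 0.294, were in no other list. The share also listed by dCas13d-ADAR or REPAIR.t1, 5 of 9 (55.6%), stood beside 177 of 196 (90.3%) on the other chromosomes.

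The difference between guides on the 3 chromosomes rested on REPAIRv2. Over dCas13d-ADAR, REPAIR.t1 and REPAIRv2 the ratio of site numbers, EZH2 over NT guide, was 1.47 (exact permutation p = 0.0463 over 216 arrangements within editors). It was 0.961 with dCas13d-ADAR, 1.17 with REPAIR.t1 and 2.83 with REPAIRv2, where it compares 4 and 4 sites with 2 and 1. Over all chromosomes the same ratio was 1.01 with dCas13d-ADAR, 1.06 with REPAIR.t1 and 2.04 with REPAIRv2. The call was lost in 10 of the 12 cases with a library left out. Without REPAIRv2 it was 1.06 (exact p = 0.278, where 36 arrangements allow 0.0556 at best). The median level differed by 0.0113, EZH2 minus NT, over dCas13d-ADAR and REPAIR.t1 (exact p = 0.333).

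At single positions, no level passed an adjusted p of 0.05 in limma between the guides. With dCas13d-ADAR 1665 positions could be tested over all chromosomes (0% called; 87 at an unadjusted p under 0.05), of which 33 were on the 3 chromosomes (0 called, 0 unadjusted). With REPAIR.t1 1053 could be tested (0% called; 61 unadjusted), of which 26 were on the 3 chromosomes (0 called, 1 unadjusted). That position was chr18:34376705, at 0.302 ± 0.00307 with the EZH2_A22 guide and 0.179 ± 0.0168 with the NT guide (SD, n = 2 each; limma adjusted p = 0.846).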

How the data were processed

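The authors deposited 1 list per library with each site's chromosome, position and A-to-G rate, which the file headers name and whose values are a fraction between 0 and 1. The submitters' processing notes name cutadapt, STAR 2.6.1b and the builds hg19 and GRCh37. How sites were called is not given in the sources used here. The lists hold no counts, coverage or strand, so depth is unknown and no level has a counting error.

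Sites on chromosomes 4, 13 and 18 were taken from all lists. The members, lists and tests were chosen with earlier results of these data known. Number of sites (on a log10 scale), percent of list, median level and percent with a neighbour within 50 bases were set side by side between editors in exact permutation tests over libraries, two-sided. Guides were pooled and p was adjusted by Benjamini-Hochberg over the 3 pairs of editors with, and the 3 without, DECOR. The 3 chromosomes were set against the rest by sign-flip permutation within libraries, and guides by permutation within editors. Levels per position were tested over all chromosomes on log2 odds (after adding 0.01 both to a level and to 1 minus it) in limma 3.58.1. Only positions that every compared library listed entered, and the fit between editors held the guide as a covariate. A test on counts had been the first choice in the design, and this was its stated fallback.

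Named by rule were, per editor, the 5 highest mean levels among positions in all its libraries, the 3 fullest 1 Mb bins and the run with the most positions in all libraries. Also named were every REPAIRv2 position, the shared positions with the most extreme differences between dCas13d-ADAR and REPAIR.t1, and, among positions in both DECOR libraries, those in the most other libraries. Other settings tried were levels of at least 0.1 or 0.2, repeat-listed sites of a group, each chromosome alone, replicate and guide blocks, other distances, bin widths, offsets and scales, and each library left out. The first 5 Mb of chromosome 4 was left out, and neighbours within 10 or 200 bases were used for the 3 chromosomes minus the rest, as alternatives chosen after seeing the data. Tests were tried on simulated data. Calculations used Python 3.11.15 (numpy 2.4.6, pandas 2.3.3, scipy 1.17.1, matplotlib 3.10.9) and R 4.3.3.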

Additional observations from a re-analysis of the deposited data

Results flagged for a closer look

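At 2 of 45 sets of values tested for a library far from the others of its editor, 1 library stood apart, where chance would mark about 1 set in 20. At chr4:99996144 the level was 0.461538 in a dCas13d-ADAR library with the NT guide and 0.4 in the other 3 dCas13d-ADAR libraries. At chr4:1206157 the level was 0.322581 in the other dCas13d-ADAR library with the NT guide and 0.2 to 0.214 in the remaining 3.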

How the results depend on the processing

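Depth is unknown here and limits what absence from a list can show, and 2 libraries per group limit every test. Of the results recomputed under other settings, 299 kept their direction and their side of the threshold or moved by less than the spread, 25 turned their direction, 15 lost a call, 6 gained one and 14 moved. The cause was not tested unless stated.

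Most changes of direction concern differences that never passed. For dCas13d-ADAR minus REPAIR.t1 the median level differed by -0.00945 with a minimum level of 0.2, -0.0168 for sites in both libraries of a group, -0.000157 on chromosome 4, -0.00483 on chromosome 13 and -0.000731 without the first 5 Mb of chromosome 4. For the same editors the percent with a neighbour differed by -5.69 points on chromosome 13, -1.23 with neighbours within 10 bases and -0.33 without the first 5 Mb of chromosome 4. The ratio of their site numbers was 1.03 on chromosome 4, 1.29 for sites in both libraries of a group and 0.800 (adjusted exact permutation p = 0.0286) without the first 5 Mb of chromosome 4. That region was chosen after its values were seen and holds more dCas13d-ADAR than REPAIR.t1 sites. Its removal therefore lowers the ratio, and nothing is read from that p-value. The ratio of DECOR over dCas13d-ADAR was 0.793 for sites in both libraries of a group. It compares 59 sites in the 1 DECOR group with 70 and 79 in the 2 dCas13d-ADAR groups.

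The share of the list, dCas13d-ADAR minus REPAIR.t1, passed on chromosome 4 (-0.32 points). It also passed without that chromosome's first 5 Mb (-1.01 points). That region was chosen after its values were seen, so nothing is read from the second call. Against REPAIRv2, dCas13d-ADAR was at -1.50 points (passing) on chromosome 4, 0.209 on chromosome 18 and -0.93 (passing) without the first 5 Mb. REPAIR.t1 minus REPAIRv2 was -1.18 (passing) on chromosome 4, 0.201 on chromosome 13, 0.497 on chromosome 18 and 0.0769 without the first 5 Mb. The REPAIRv2 shares on chromosome 4 rest on 1 to 3 sites per library, so nothing is read from the calls against REPAIRv2 here. DECOR minus REPAIRv2 was 0.253 with a minimum level of 0.2, 0.442 on chromosome 13, 0.502 on chromosome 18 and 0.167 without the first 5 Mb, and its median level then differed by -0.0187. DECOR minus REPAIR.t1 was -0.18 points on chromosome 4.

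The 3 chromosomes minus the rest lost their call for the median level at 0.00521 with a minimum level of 0.2, 0.0137 for sites in both libraries of a group and 0.0113 on chromosome 4. The percent with a neighbour lost it at -3.82 points with a minimum level of 0.2 and at -2.57 points with neighbours within 10 bases (adjusted exact permutation p = 0.0615), a distance tried for this difference after seeing the data, as was 200 bases (-8.66 points, still passing).

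The replicate numbers do not pair the libraries: deviations of same-numbered libraries correlated between -0.0415 and 0.0551 over 6 pairs of groups at 609 positions. With the replicate number or the guide as a block, the values against REPAIRv2 stayed at 59.8 and 64.0 for the ratio of sites and at 17.8 and 15.5 points for neighbours, with adjusted exact permutation p = 0.0833, because fewer arrangements are left. REPAIRv2 has 1 to 4 sites per library here, and a lone site can have no neighbour. Nothing is therefore read from tests of neighbours against REPAIRv2. The EZH2 to NT ratio stayed at 1.47 with an exact permutation p of 0.0938 under the replicate block, and was 1.06 without REPAIRv2. No other call changed under the replicate block.

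Positions past the threshold over all chromosomes, dCas13d-ADAR against REPAIR.t1 in limma, were 44, but 2 with the NT libraries alone and 0 with the EZH2 libraries alone (114 at an unadjusted p under 0.05), where 4 libraries enter. The median log2 odds difference of those on the 3 chromosomes was then -0.0598 and -0.0321, against 0.26 with both guides. At single positions the log2 odds difference turned to -0.21 at chr18:34380174 and -0.45 at chr4:108940744 with EZH2 libraries alone, and to -0.47 at chr4:106367650 and -0.0598 at chr4:57326186 with NT libraries alone.

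Counting positions within 50 bases as shared gave 8.71% for DECOR and REPAIR.t1, 9.60% for DECOR and dCas13d-ADAR, and 37.8% for dCas13d-ADAR and REPAIR.t1. Within REPAIR.t1 it gave 42.2% between guides and 43.1% within a group, and within dCas13d-ADAR 50.9% and 57.4%. A minimum level of 0.2 gave 25.9% for the DECOR pair and 50.2% within dCas13d-ADAR groups. The 3 fullest bins held 22.2% of dCas13d-ADAR sites with 0.5 Mb bins and 33.3% with 2 Mb bins, and 18.1% of REPAIR.t1 sites with 0.5 Mb bins.

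Each library was left out in turn. The ratio to REPAIRv2 ran from 44.8 to 71.1 for dCas13d-ADAR and from 47.9 to 76.1 for REPAIR.t1, and the neighbour difference from 16.6 to 19.01 and from 14.9 to 16.3 points. None of these passed with 3 libraries against 4 (exact p = 0.0571, the smallest possible). The EZH2 to NT ratio ran from 1.31 to 1.65. The median level ran from -0.00501 to 0.00703 for dCas13d-ADAR minus REPAIR.t1 and from -0.0283 to 0.0226 for DECOR minus REPAIRv2, and the share from -0.0562 to 0.184 points for DECOR minus REPAIR.t1. Repeat listing, the 3 chromosomes minus the rest, ran from -3.87 to -2.21 points and passed without dCas13d-ADAR NT replicate 2 (-3.87; exact permutation p = 0.0352). Both libraries of a group hold the same shared sites, so nothing is read from that call. The 44 positions became 10 to 42, and fell to 10 without dCas13d-ADAR NT replicate 1, 18 without REPAIR.t1 EZH2_A22 replicate 2 and 19 without REPAIR.t1 NT replicate 2. The log2 odds difference ran from -0.25 to 0.40 at chr4:106367650 and from -0.0274 to 0.82 at chr4:108940744.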
